A study of Drosophila melanogaster with 11 samples.

Results

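Expression of 6 genes of the larval fat body was followed across 5 isofemale strains of Drosophila melanogaster: the hexamerin genes Lsp1alpha, Lsp1beta, Lsp1gamma and Lsp2, and the fat body protein genes Fbp1 and Fbp2. They were chosen by symbol, as the larval serum protein genes and the fat body protein genes that go with them by name, and make up 6 of the 13931 genes in the deposited count table. All 6 were found in the table and all 6 passed the filter on low counts, as did 8415 genes in all.

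Hexamerins are large storage proteins that the larval fat body secretes into the haemolymph during the last instar. Around the end of feeding, under control of the steroid hormone ecdysone, fat body cells take the hexamerins back up by receptor-mediated endocytosis and store them in protein granules, from which amino acids are drawn during metamorphosis. The LSP1 proteins are hexamers built from the alpha, beta and gamma chains, and LSP2 is built from a single kind of chain. Fbp1 encodes the receptor that binds the hexamerins for uptake. Fbp2 encodes a protein of the short-chain dehydrogenase family related to alcohol dehydrogenase, and is neither a hexamerin nor their receptor.

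Isofemale strains are each founded by 1 female caught in the wild, and the 5 strains compared here, MU26, MU17, MU14, MU12 and MU10, all came from Munich, Germany. Poly-A RNA was sequenced from fat bodies of female larvae at the late wandering stage of the last instar, which had been reared at a controlled density of 250 larvae per vial, staged at 25°C and picked by the colour of dyed gut contents. There were 3 libraries of MU14 and 2 of each other strain, 11 in all, each from a separate pool of dissected fat bodies that the study calls a biological replicate. None of the strains was treated, and none is a control. A difference between strains is given as the strain with the higher number minus the strain with the lower number, or as 1 strain minus the mean of the other 4. Because each sample is bulk tissue, fewer cells of a type and less RNA per cell cannot be told apart.

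Total counts were 34631482 to 49582725 per library, with a median of 38321327. Levels are given as CPM, counts per 1000000 counts of a library, after scaling of library sizes by the trimmed mean of M values (TMM), with scaling factors between 0.833 and 1.16. The 2 libraries of MU26 had the lowest factors, 0.869 and 0.833, so their CPM values stand higher than their shares of the raw counts. Of the 5 strains, MU17 and MU12 stood out by 2 libraries that differed several-fold in the LSP1 genes. Tests of the LSP1 genes that rest on those libraries are given with and without them.

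By the Release 6 assembly the genes are scattered over 3 chromosomes. Lsp1alpha (FBgn0002562) lies on chromosome X from 12490291 to 12492982 on the forward strand, Lsp1beta (FBgn0002563) on 2L from 898500 to 901316, also forward, and Lsp1gamma (FBgn0002564) on 3L from 66430 to 68995, also forward. Each has 2 exons. Lsp2 (FBgn0002565), annotated with 1 exon, lies on 3L from 12129393 to 12131869 on the forward strand. Fbp1 (FBgn0000639) lies on 3L from 14094589 to 14098053 on the reverse strand, and Fbp2 (FBgn0000640) on 2L from 9426784 to 9427917 on the forward strand. The LSP1 genes are relatives, and read pairs that fitted more than 1 gene were discarded before counting. How many LSP1 read pairs were lost in this way was not tested.

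The 6 genes held between 30.0% and 37.7% of all counts of a library, with a median of 32.0%. Fbp1 alone held 16.6% to 28.7%, and the 4 hexamerins together 3.83% to 14.1%. The 3 LSP1 genes held 1.45% of the second MU17 library but 9.40% of the second MU12 library. Counting error is negligible at this depth, the widest 95% Clopper-Pearson interval of a share being ± 0.0147 percentage points for Fbp1. Such intervals cover counting error only.

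**Figure D1:**
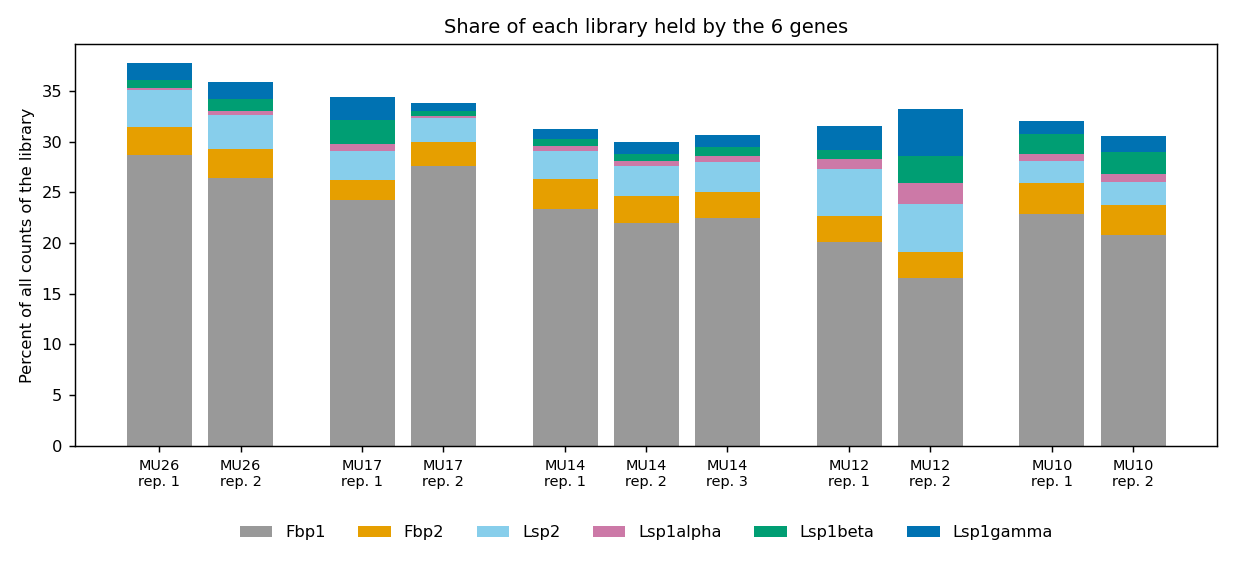
Share of all counts of each library (percent, stacked) held by Fbp1, Fbp2, Lsp2, Lsp1alpha, Lsp1beta and Lsp1gamma in the 11 libraries, grouped by strain, with no error bars because each bar is 1 library. The whole bar runs from 30.0% to 37.7%, with Fbp1 as its largest part in every library, and the LSP1 part differs most between the 2 libraries of MU17 and between the 2 of MU12.

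Transcripts of different length can be compared only per length, as counts per kilobase scaled to the same sum in each library. On that scale Fbp1 was the most abundant gene in every library, with a mean of 121344, so no gene stood above it. The gene next below was Obp99b, which encodes an odorant-binding protein, with a mean of 60666. Fbp2 followed at 44994 with rank 3 and Lsp2 at 22962 with rank 5. Lsp1gamma (12739), Lsp1beta (8857) and Lsp1alpha (4774) ranked 8, 13 and 20. Within single libraries the rank of Lsp1alpha ran between 9 and 149, whereas Fbp2 kept between ranks 3 and 5 and Lsp2 between 4 and 7.

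Fbp1, the receptor gene, had more reads than the 4 hexamerin genes together in every library. There were 7.21 Fbp1 reads for each hexamerin read in the second MU17 library and 1.17 in the second MU12 library, the extremes, with a median of 4.04. Per length, Fbp1 stood above the 3 LSP1 genes together by 1.32 to 14.3 times. It also stood above all 4 hexamerins together in every library but the second of MU12, where Fbp1 held 8.67% of the counts per kilobase and the hexamerins 10.01%.

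Differences between strains were tested with edgeR's quasi-likelihood test, fitted on 8415 genes with adjustment over all of them. Across the 5 strains 3 of the 6 genes were called, Lsp2 (adjusted p = 0.00108), Fbp1 (0.00192) and Fbp2 (0.00292), where 48.3% of all tested genes were called. The LSP1 genes were not called by edgeR, with adjusted p-values of 0.0768 for Lsp1gamma, 0.105 for Lsp1alpha and 0.240 for Lsp1beta, and of these Lsp1gamma alone had an unadjusted p under 0.05. Over the 10 pairs of strains the 6 genes gave 20 calls in 60 tests, where the background over all genes was 20.3%. Of these, Fbp1, Fbp2 and Lsp2 gave 19 calls in 30 tests and the LSP1 genes 1 call in 30. That split is not independent of the test across strains, which used the same libraries. By pair, 3 of the 6 were called in MU26 minus MU17 (background 20.9%) and 3 in MU26 minus MU14 (19.9%), each higher in MU26, and 2 each in MU26 minus MU12 (25.1%) and MU26 minus MU10 (15.5%), again higher in MU26. There were 3 in MU14 minus MU12 (26.5%), 3 in MU12 minus MU10 (19.6%), 2 in MU17 minus MU12 (21.0%), 1 each in MU17 minus MU14 (16.6%) and MU17 minus MU10 (19.0%), and none in MU14 minus MU10 (19.2%). By raw p under 0.05, the LSP1 genes gave 7 in 30, but the share of all genes by raw p was not computed, so this count has no background.

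The 2 sets of genes differed in their spread between libraries of a strain. The within-strain standard deviation of log2 CPM was 0.089 for Fbp1, 0.091 for Fbp2 and 0.12 for Lsp2, below the median of 0.21 over all tested genes. It was 0.84 for Lsp1alpha, 0.80 for Lsp1beta and 0.60 for Lsp1gamma, each larger than in at least 90.9% of the tested genes. Most of this LSP1 spread came from MU17 and MU12, where libraries of a strain differed 2.07-fold to 5.49-fold. In MU26, MU14 and MU10 they differed 1.03-fold to 1.61-fold, and the standard deviation over those strains alone was not computed. Among the 200 most abundant genes the median was 0.14, and Lsp2 was larger than 43% of them, Fbp1 than 29% and Lsp1gamma than 95%. Strain means spanned 0.89 on the log2 scale for Fbp1, 0.78 for Fbp2 and 0.94 for Lsp2, but 2.16 for Lsp1alpha, 1.57 for Lsp1beta and 1.57 for Lsp1gamma. The median span was 0.78 over all tested genes and 0.77 over the 200 most abundant.

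**Figure D2:**
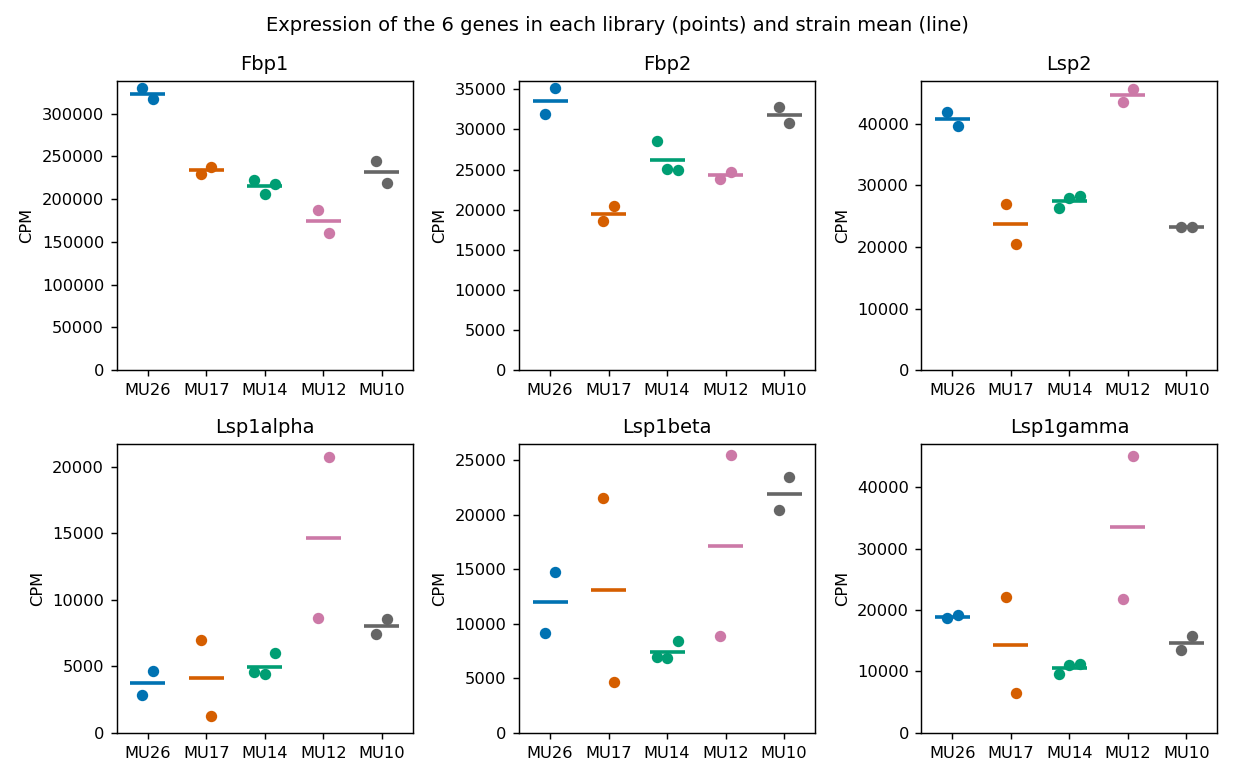
CPM (linear axes from 0) of each of the 6 genes in the 11 libraries, with 1 point per library and a line at the mean of each strain. Libraries of a strain lie close together for Fbp1, Fbp2 and Lsp2, while the LSP1 genes differ by up to 5.49-fold between the 2 libraries of MU17.

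Fbp1, the hexamerin receptor gene, had 329699 and 316870 CPM in MU26, 229779 and 237296 in MU17, 222909, 206554 and 217530 in MU14, 187905 and 160841 in MU12, and 244954 and 219034 in MU10. Both MU26 libraries lay above all 9 others and both MU12 libraries below all 9 others, while MU17, MU14 and MU10 were close neighbours in the order. Fbp1 was called in 7 of 10 pairs and set MU26 apart as higher and MU12 apart as lower than each of the other 4 strains. Of all tested genes 3.34% set MU26 apart and 4.98% set MU12 apart, in either direction.

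The widest gap in Fbp1 was MU26 over MU12, with 323285 ± 9071 against 174373 ± 19138 CPM (SD, n = 2 each), a log2 difference of 0.89 ± 0.10 (SE) with an edgeR adjusted p of 0.000622. MU26 minus MU14 was 0.58 ± 0.09 (adjusted p = 0.00394), MU26 minus MU10 0.48 ± 0.10 (0.0169) and MU26 minus MU17 0.47 ± 0.10 (0.0146). MU12 minus MU10 was -0.41 ± 0.10 (0.0247), and MU17 minus MU12 and MU14 minus MU12 were 0.42 ± 0.10 (0.0226) and 0.31 ± 0.09 (0.0437). The 3 pairs among MU17, MU14 and MU10 were not called, with differences between -0.11 and 0.11.

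The higher level of Fbp1 in MU26 depends in part on the scaling. As a share of all counts Fbp1 held 28.7% and 26.4% of the MU26 libraries against 24.3% and 27.6% of the MU17 libraries, so the strains overlapped. With total counts in place of TMM the log2 difference of MU26 minus MU17 was 0.09 (edgeR adjusted p = 0.589), under a scaling that moved the median of all genes in that pair by -0.38. MU26 minus MU14 and MU26 minus MU10 were 0.28 and 0.33 with total counts and were not called (0.0781 and 0.0919). MU26 minus MU12 passed the test under every alternative tried, at 0.59 with total counts and 0.79 or more when single libraries were left out.

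Single libraries also decided some Fbp1 calls. MU26 minus MU14 was called whichever library was left out. MU26 minus MU17 was not called by edgeR without the first MU17 library (adjusted p = 0.0735), the first MU26 library (0.0609) or the second (0.0512), and MU26 minus MU10 not without the first (0.0531) or second (0.125) MU10 library or the first (0.0777) or second (0.0501) MU26 library. MU17 minus MU12 was not called without the first (0.0602) or second (0.0755) MU17 library, nor MU12 minus MU10 without the first (0.173) or second (0.053) MU10 library or the last MU14 library (0.0505). Without the second MU12 library, the lowest of all, MU17 minus MU12 was 0.32 (0.0908), MU14 minus MU12 was 0.21 (0.189) and MU12 minus MU10 was -0.29 (0.115). The call of MU14 minus MU12 ended without any of 9 of the 11 libraries.

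Fbp2 had 31950 and 35206 CPM in MU26, 18546 and 20471 in MU17, 28523, 25042 and 24946 in MU14, 23828 and 24743 in MU12, and 32816 and 30854 in MU10. The MU17 libraries were the lowest of all, and those of MU26 and MU10 overlapped at the top. Fbp2 was called in 6 pairs, of which MU26 minus MU17 (0.78 ± 0.11, edgeR adjusted p = 0.00188) and MU17 minus MU10 (-0.71 ± 0.11, 0.00336) held under every alternative.

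The remaining Fbp2 calls were smaller. MU26 minus MU12 was 0.47 (edgeR adjusted p = 0.0139), MU17 minus MU14 was -0.42 (0.0216), MU12 minus MU10 was -0.39 (0.0353) and MU26 minus MU14 was 0.36 (0.0337), and each ended under 3 or more alternatives. As for Fbp1, the differences of MU26 depended on the scaling, and with total counts MU26 minus MU12 was 0.16 and MU26 minus MU14 was 0.06 (edgeR adjusted p = 0.32 and 0.715). MU26 minus MU12 was also not called by edgeR without the first MU12 library (adjusted p = 0.0525) or the second MU26 library (0.086), nor MU17 minus MU14 without the first MU14 library (0.0697) or the first MU17 library (0.135). The other 2 calls each ended without any of 6 libraries. MU17 minus the mean of the other strains was -0.56 ± 0.09 (0.00368).

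The order of strains in Fbp2 was not that of its relative alcohol dehydrogenase. Adh, which encodes the enzyme that breaks down ethanol, was at 176 ± 15.1 CPM in MU26, 209 ± 84.9 in MU17, 200.2 ± 10.7 in MU14, 411 ± 232 in MU12 and 825 ± 104 in MU10 (SD, n = 2, and 3 for MU14). Its neighbour Adhr followed the same order at the top, with 487 ± 43.7 CPM in MU26, 590 ± 236 in MU17, 524 ± 27.1 in MU14, 1138 ± 635 in MU12 and 2357 ± 344 in MU10. Both passed the test across strains (edgeR adjusted p = 0.00389 for Adh and 0.00312 for Adhr). Adh and Adhr share transcripts, so the division of reads between them is uncertain.

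Lsp2 had 41847 and 39568 CPM in MU26, 26939 and 20457 in MU17, 26263, 27951 and 28285 in MU14, 43573 and 45642 in MU12, and 23166 and 23205 in MU10. MU12 lay above all 9 other libraries, MU26 came next, above the remaining 7, and MU14, MU17 and MU10 formed a lower group in which MU17 spanned the MU10 values. All 6 called pairs set MU26 or MU12 against 1 of the 3 lower strains, and the other 4 pairs were not called.

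MU12 minus MU10 was the widest difference in Lsp2, at 0.94 ± 0.13 (edgeR adjusted p = 0.0018), followed by MU17 minus MU12 at -0.91 ± 0.13 (0.00203), MU26 minus MU10 at 0.81 ± 0.13 (0.00432) and MU26 minus MU17 at 0.78 ± 0.13 (0.00401), in which MU26 averaged 40707 ± 1612 CPM and MU17 23698 ± 4583 CPM (SD, n = 2 each). MU14 minus MU12 was -0.70 ± 0.11 (0.00326) and MU26 minus MU14 was 0.57 ± 0.11 (0.0113). The first 5 of these held under every alternative. MU26 minus MU14 was 0.27 with total counts (0.0744), and 0.52 without the first MU26 library (0.0707).

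MU26 and MU12, the strains with the most Lsp2, were at opposite ends of the order for Fbp1. MU26 minus MU12 was 0.89 for Fbp1 and -0.13 ± 0.13 for Lsp2 (edgeR adjusted p = 0.491). MU12 minus the mean of the other strains was -0.51 ± 0.08 in Fbp1 and 0.67 ± 0.10 in Lsp2 (edgeR adjusted p = 0.00313 and 0.00147), and both differences held under every alternative.

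**Figure D3:**
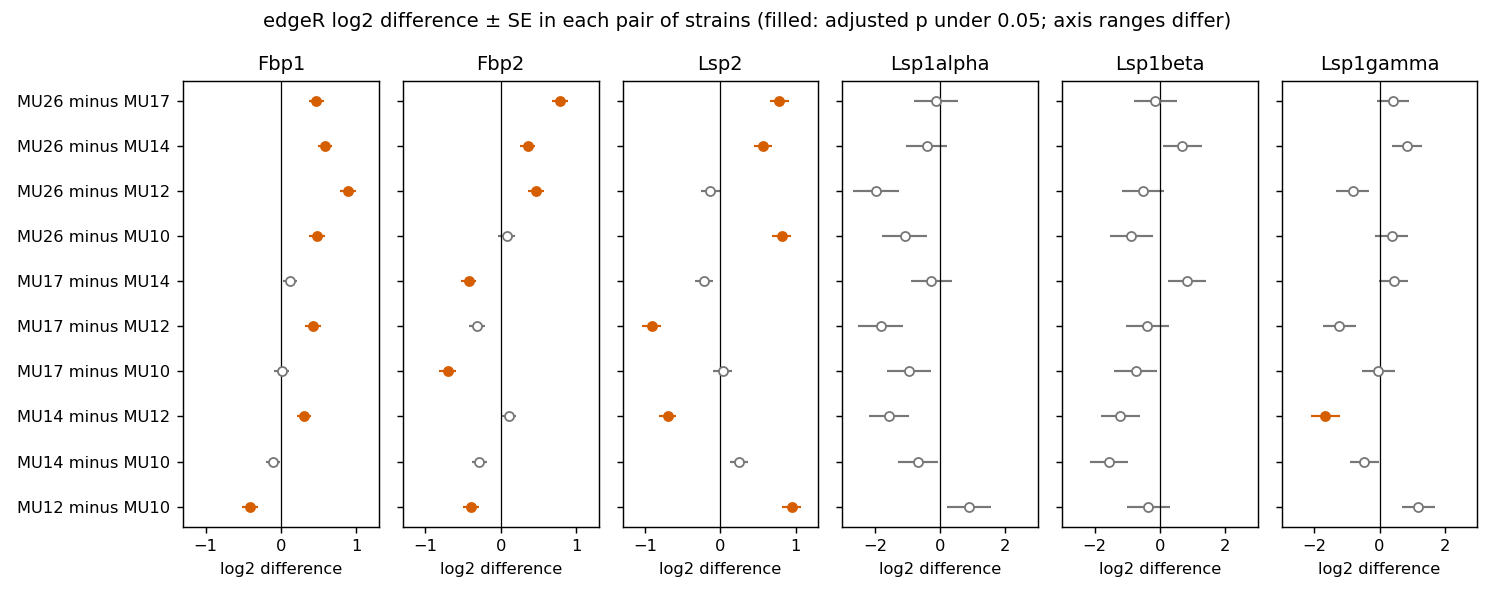
edgeR log2 difference (points) with its SE (bars) for each of the 10 pairs of strains in the 6 genes, with points filled where the adjusted p was under 0.05. The axis runs from -1.3 to 1.3 for Fbp1, Fbp2 and Lsp2 and from -3 to 3 for the LSP1 genes, whose error bars are several times longer and where MU14 minus MU12 in Lsp1gamma is the single filled point.

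Of the LSP1 chains, Lsp1alpha had the lowest mean level per length and Lsp1gamma the highest. Lsp1alpha had 2881 and 4627 CPM in MU26, 7003 and 1275 in MU17, 4549, 4403 and 6004 in MU14, 8602 and 20751 in MU12, and 7427 and 8570.4 in MU10. MU12 lay above all 9 other libraries by a narrow margin in its first library. The 2 MU17 libraries enclosed 5 of the 9 others between them.

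Lsp1beta had 9162 and 14761 CPM in MU26, 21550.4 and 4701 in MU17, 6961, 6874 and 8406 in MU14, 8848 and 25445 in MU12, and 20394 and 23412 in MU10. MU14 had the lowest mean, 7414 ± 861 CPM (SD, n = 3), and MU10 the highest, 21903 ± 2134 CPM (SD, n = 2). MU14 minus MU10 was -1.56 ± 0.59, which edgeR did not call (adjusted p = 0.10), but which was called by DESeq2 (0.0291) and without either MU17 library (0.0305 without the first and 0.0312 without the second).

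Lsp1gamma had 18654 and 19236 CPM in MU26, 22129 and 6462 in MU17, 9615, 11007 and 11143 in MU14, 21837 and 45138 in MU12, and 13551 and 15730 in MU10. Its strains did not overlap except for MU17, whose libraries spanned 8 of the 9 others. MU14 minus MU12 was the single LSP1 difference that edgeR called in a pair, at -1.66 ± 0.45 (adjusted p = 0.0258). Without the second MU12 library it was -1.03 (0.196), and it was also not called without any one of the MU14 libraries (0.064 to 0.0807) or with the replicate number of the labels as a block (0.0888).

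MU12 had the highest mean level of Lsp1alpha and Lsp1gamma. Against the mean of the other strains it was higher by 1.56 ± 0.48 in Lsp1alpha and 1.23 ± 0.36 in Lsp1gamma (edgeR adjusted p = 0.0434 and 0.0363). Without the second MU12 library the differences were 0.79 and 0.61 and neither was called (0.453 and 0.422). The Lsp1alpha call was lost without any of 7 of the 11 libraries and the Lsp1gamma call without any of 8, and both were lost with limma-voom (0.0672 and 0.0564) and with the replicate block (0.093 and 0.0848). Against the mean of the other 4 strains, 11 of 30 tests of the 6 genes were called, where 21.0% were called over all genes. They were 3 in MU26 (background 21.5%), 2 in MU17 (18.8%), 0 in MU14 (21.4%), 4 in MU12 (25.8%) and 2 in MU10 (17.3%). Of the 11, 4 passed under every alternative: Fbp1 in MU26 and MU12, Fbp2 in MU17 and Lsp2 in MU12. The other MU26 calls were Fbp2 and Lsp2, which were 0.14 and 0.23 with total counts and not called (edgeR adjusted p = 0.28 and 0.0697). The MU10 calls were also Fbp2 and Lsp2. The call of Lsp2 in MU17, at -0.47 (edgeR adjusted p = 0.0151), was -0.28 without the second MU17 library (0.114).

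The test across strains was sensitive to MU17 in the LSP1 genes. Without the first MU17 library all 6 genes were called across strains, where 42.3% of all tested genes were, and Lsp1alpha had an edgeR adjusted p of 0.00759, Lsp1beta of 0.0356 and Lsp1gamma of 0.00585. Without the second MU17 library Lsp1alpha (0.0253) and Lsp1gamma (0.0121) were called, as they were by DESeq2 on all libraries (0.0112 and 0.00753), where DESeq2 called 59.6% of all tested genes.

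Within a strain the LSP1 genes were high or low together. In 5 of 5 strains the library with the most Lsp1alpha also had the most Lsp1beta and Lsp1gamma. In MU17 the first library stood above the second by 5.49-fold in Lsp1alpha, 4.58-fold in Lsp1beta and 3.42-fold in Lsp1gamma. In MU12 the second library stood above the first by 2.41-fold, 2.88-fold and 2.07-fold. Lsp2 differed far less between the same libraries, by 1.32-fold in MU17 and 1.05-fold in MU12, and Fbp1 by 1.03-fold and 1.17-fold, in each strain with the lower value in the library rich in LSP1. These are differences between 2 libraries and were not tested. At least a 2-fold excess in the same direction was seen in both strains for all 3 LSP1 genes and for 1.05% of all tested genes, 88 in number. The strains and directions were chosen because the LSP1 genes differed this way, so the place of these genes in that share was set by the choice.

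Other genes also differed between these pairs of libraries. The genes named here were chosen after their values were seen. Pdi, which encodes a disulphide isomerase of the endoplasmic reticulum, had 455 CPM in the first MU17 library against 241 in the second, and 1015 CPM in the second MU12 library against 398 in the first. Sec61alpha, the channel subunit of the secretion translocon, was at 235 against 148 CPM in MU17 and at 395 against 179.7 CPM in MU12, in the same order. Of 14 genes for folding and secretion in the endoplasmic reticulum, 11 were higher in the library rich in LSP1 in both strains, where this was true of 2224 of all 8415 tested genes. In other lists described below it was true of 8 of 10 other secreted fat body proteins, 3 of 4 hemocyanin relatives, and 2 of 2 relatives of Fbp2. It was true of 1 of 19 genes for endocytosis, granules and lysosomal proteases, 0 of 9 transcription factors and 1 of 3 yolk protein genes. Genes of a list, here and in the ecdysone list below, are not independent of each other. Each strain gave 1 pair of libraries, chosen for its LSP1 difference. Whether a list differed from all genes in this was not tested.

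Hr4, Hr3 and Eip78C, 3 nuclear receptor genes of the ecdysone list, had the order opposite to that of the LSP1 genes, and were likewise chosen after their values were seen. Hr4 had 189.6 CPM in the first MU17 library against 312 in the second, and 77.2 CPM in the second MU12 library against 212 in the first. Hr3 was at 55.9 against 69.1 CPM in MU17 and 7.30 against 28.8 CPM in MU12, and Eip78C at 145 against 181 CPM and 68.1 against 157 CPM. Of 19 tested genes of the ecdysone list, 10 were lower in the library rich in LSP1 in both strains and 1 was higher, the receptor gene EcR, where 2495 of the 8415 tested genes were lower in both. Their part in the LSP1 differences was not tested.

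The ratio of 2 hexamerins within a library does not depend on depth or scaling, and was compared across strains with an exact permutation test over all 17325 divisions of the 11 libraries, adjusted over 6 ratios. The largest contrast was that of the alpha and beta chains. The ratio of Lsp1alpha to Lsp1beta counts was 0.314 and 0.313 in MU26, 0.325 and 0.271 in MU17, 0.654, 0.641 and 0.714 in MU14, 0.972 and 0.816 in MU12, and 0.364 and 0.366 in MU10. Every MU12 library lay above every MU14 library, these lay above MU10, and MU26 lay below MU10 within the range of MU17.

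Of the 17325 divisions 3, the true one included, gave an F value as large as that of the strains (F = 80.5, p = 0.000173, adjusted p = 0.00104, exact permutation test), and strains accounted for 98.2% of the variance of the log2 ratio. The ratio stayed near its strain value where the levels did not. Between the MU17 libraries Lsp1alpha differed 5.49-fold and Lsp1beta 4.58-fold, while the ratio was 0.325 in the first and 0.271 in the second. The strain effect passed the test under every alternative, with adjusted p-values of 0.000476 to 0.019 when single libraries were left out. Whether sequence differences between strains changed how reads of the 2 genes were mapped was not tested.

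**Figure D4:**
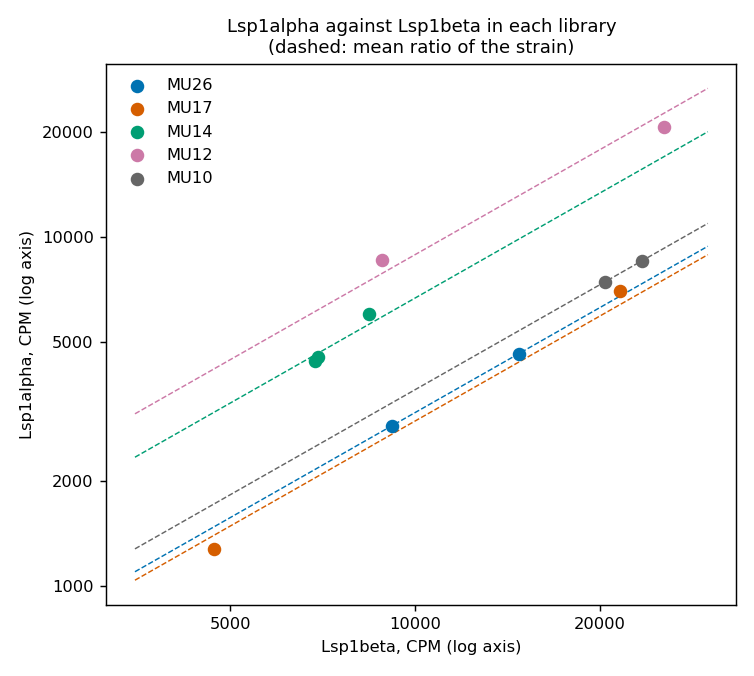
Lsp1alpha against Lsp1beta in CPM, both on log axes, with 1 point per library coloured by strain and a dashed line at the mean ratio of each strain. Libraries of a strain fall along their line, MU14 and MU12 on the upper lines (mean ratios 0.669 and 0.894) and MU26, MU17 and MU10 on the lower ones (0.314, 0.298 and 0.365), even where their levels differ several-fold.

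The gamma chain moved more loosely with the others. Lsp1beta per Lsp1gamma count was 0.491 and 0.767 in MU26, 0.974 and 0.727 in MU17, 0.724, 0.625 and 0.754 in MU14, 0.405 and 0.564 in MU12, and 1.505 and 1.488 in MU10 (F = 10.3, adjusted p = 0.0286, exact permutation test). MU10 lay above all others, and the other strains overlapped. Lsp1alpha per Lsp1gamma averaged 0.197 ± 0.061 in MU26, 0.257 ± 0.084 in MU17, 0.471 ± 0.069 in MU14, 0.427 ± 0.047 in MU12 and 0.546 ± 0.002 in MU10 (SD; F = 9.33, adjusted p = 0.0286, exact permutation test). The beta over gamma call was lost without any of 6 of the 11 libraries and the alpha over gamma call without any of 9 (exact permutation test). Fewer divisions are possible there, but F also changed. Without the first and the second MU10 library F was 5.56 and 5.65 for beta over gamma, and 6.85 and 6.88 for alpha over gamma. Without the second MU26 library F was 11.7 for alpha over gamma. With the replicate block the adjusted p was 0.075 for beta over gamma and 0.10 for alpha over gamma (exact permutation test).

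The ratios of the LSP1 chains to Lsp2 did not pass, with adjusted p-values of 0.231 for Lsp1alpha, 0.231 for Lsp1beta and 0.399 for Lsp1gamma (exact permutation test). Lsp1alpha per Lsp2 passed without the first MU17 library (0.032). Per length, the 3 LSP1 genes together amounted to 0.704 and 0.928 of Lsp2 in MU26, 1.78 and 0.579 in MU17, 0.765, 0.760 and 0.858 in MU14, 0.866 and 1.91 in MU12, and 1.68 and 1.93 in MU10. Both MU10 libraries thus held more LSP1 than Lsp2 transcripts, all 3 MU14 and both MU26 libraries held less, and MU17 and MU12 had 1 library on each side.

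**Figure D5:**
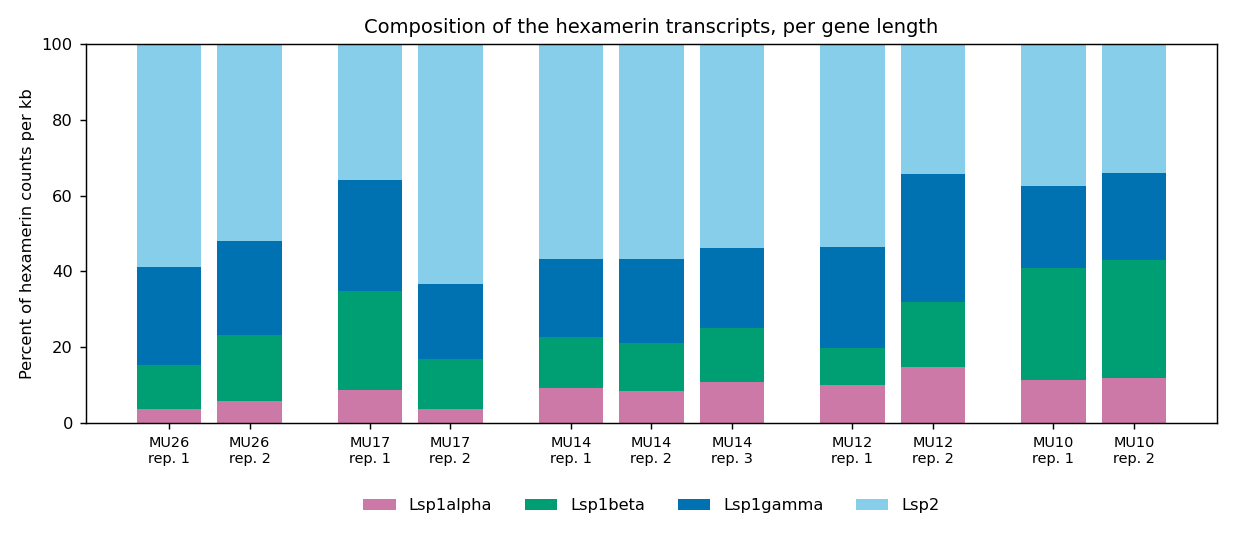
Composition of the hexamerin transcripts (percent of counts per kilobase of the 4 genes, stacked to 100) in each of the 11 libraries, grouped by strain. Lsp2 makes up 53.8% to 56.8% in the MU14 libraries and 37.4% and 34.1% in MU10, and it differs most between the 2 libraries of MU17 (36.0% and 63.3%), while Lsp1alpha is the smallest part in all libraries but the first of MU12.

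Genes of steps around hexamerin synthesis and uptake were taken from lists, and members called across strains are set against the 48.3% of all tested genes. Of the ecdysone receptor and its early response genes 8 of 19 were called. Eip75B, a nuclear receptor induced early by ecdysone, was at 507 ± 56.0 CPM in MU26, 418 ± 69.4 in MU17, 325 ± 9.89 in MU14, 197 ± 31.5 in MU12 and 477 ± 17.5 in MU10 (SD, edgeR adjusted p = 0.00134). Eip55E, the gene of a cystathionine gamma-lyase listed as Cth, was lowest in MU26, at 93.9 ± 7.92 CPM, against 269.9 ± 49.5 in MU17 and 495 ± 10.4 in MU12 (0.00125). Eip71CD, a methionine sulphoxide reductase gene listed as MsrA, and Eip63F-1, which encodes a calcium-binding protein, also passed (0.00756 and 0.00728). The broad gene, br, was the most abundant that did not pass, at 1119 ± 19.8 CPM in MU26 and 826 ± 109 in MU12 (0.118).

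Of transcription factors with roles in fat body genes 6 of 9 were called. The GATA factor gene srp was at 519.6 ± 89.6 CPM in MU26, 321 ± 21.4 in MU17, 386 ± 36.1 in MU14, 414 ± 11.6 in MU12 and 579 ± 6.61 in MU10 (edgeR adjusted p = 0.00706), so that MU17 was lowest, as in Fbp2. Its cofactor gene ush (0.0109) and foxo, the target of insulin signalling (0.0109), also passed, foxo with 233 ± 2.62 CPM in MU26 and 118 ± 1.96 in MU12. The C/EBP gene slbo passed at low levels (0.00342), with no counts in either MU10 library and 3.99 CPM in the second MU12 library against 22.8 in the first. Hnf4, a nuclear receptor of fat metabolism, did not pass (0.0755).

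Of genes for endocytosis, granules and lysosomal proteases 10 of 19 were called. The lysosomal protease gene cathD was highest in MU26, at 4960.4 ± 100.4 CPM, against 3040.2 ± 381 in MU17, 3536 ± 101 in MU14, 2842 ± 324 in MU12 and 3885 ± 248 in MU10 (SD, edgeR adjusted p = 0.00464), and like Fbp1 it was lowest in MU12. CtsL1, another cathepsin gene, was also lowest in MU12 at 199 ± 9.56 CPM (0.00614). The clathrin adaptor gene AP-2alpha was at 121 ± 0.0554 CPM in MU26 and 187 ± 4.09 CPM in MU12, its highest (0.00499), and AP-2mu was low in MU17 and MU14 at 57.8 ± 0.356 and 59.3 ± 1.49 CPM (0.00703). The clathrin heavy chain gene Chc did not pass (0.0993).

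Of genes for folding and secretion in the endoplasmic reticulum 6 of 14 were called. The chaperone gene Gp93 was at 195 ± 34.5 CPM in MU26, 327 ± 104 in MU17, 172 ± 24.2 in MU14, 584 ± 234 in MU12, its highest, and 231 ± 37.0 in MU10 (SD, edgeR adjusted p = 0.00604). CaBP1 (0.00531), a disulphide isomerase gene, and Calr (0.0235), which encodes calreticulin, were highest in MU12 too, and Sec61gamma, a small translocon subunit, was lowest in MU10 at 9.36 ± 1.05 CPM (0.00403). Hsc70-3, the main chaperone of this compartment, was not called (0.0824).

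Among 10 other genes of secreted fat body proteins 6 were called. Tsf1, which encodes the iron carrier transferrin, ranged most, with 815 ± 441 CPM in MU26, 3779 ± 2423 in MU17, 6109 ± 576 in MU14, 2253 ± 148 in MU12 and 2693 ± 507 in MU10 (SD, edgeR adjusted p = 0.00846). The ferritin gene Fer1HCH (0.00183) and the growth factor genes Idgf2 (0.00373) and Idgf3 (0.00503) also passed, whereas apolpp, which encodes the lipoprotein of the haemolymph and is the most abundant of them, did not (0.261).

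Hexamerins belong to the hemocyanin superfamily, from which 3 prophenoloxidase genes and CG8100 were also listed, and all 4 were called. CG8100 was at 1457 ± 59.2 CPM in MU26, 1334 ± 170.0 in MU17, 914 ± 73.0 in MU14, 1209 ± 217 in MU12 and 1069 ± 76.0 in MU10 (SD, edgeR adjusted p = 0.0218). PPO1 (0.0101) and PPO2 (0.00504), made by crystal cells among the haemocytes, were lowest in MU26 at 4.09 ± 1.71 and 4.99 ± 1.63 CPM, and PPO3 was near 1 CPM on average (0.00142). All 6 haemocyte markers were also called, where 48.3% of all tested genes were. Their summed level was 78.6 and 85.4 CPM in MU26 against 116 to 219 CPM in the other libraries, most of it from crq. The haemocyte markers NimC1, He and Pxn were lowest in MU12, not MU26, and the summed level was highest in MU14, where PPO1 was at 9.21 CPM on average. Their part in the PPO differences was not tested. Of the 3 yolk protein genes, which the adult female fat body expresses strongly, Yp3 (0.00143) and Yp1 (0.046) passed and Yp2 did not (0.12), with a summed level of 2.50 to 58.6 CPM.

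As a description, the genes whose log2 CPM most resembled each of the 6 over the 11 libraries were sought among 4392 genes with a mean of at least 10 CPM. All points share the same 11 libraries and their scaling. Fbp1 was most like CG11590 (Pearson r = 0.963), CD98hc (0.962), which encodes the heavy chain of amino acid transporters, and CG11975 (0.959). From deviations within strains, r was 0.464 for CG11590, 0.822 for CD98hc and 0.803 for CG11975. CD98hc was at 70.7 CPM in its lowest library and 551 CPM in its highest. Fbp2 was most like the protein phosphatase gene Pp1-87B (0.970), caps (0.947) and CG9588 (0.942), and Lsp2 most like the splicing factor gene crn (0.967) and M1BP (0.932). Within strains r was 0.461 for Pp1-87B, 0.466 for caps, 0.683 for CG9588, 0.893 for crn and 0.383 for M1BP.

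The genes most like the LSP1 chains had lower values of r over the 11 libraries. They were CG5377 (0.915), CG5390 (0.907) and the organic cation transporter gene Orct (0.897) for Lsp1alpha, and SP1173 (0.918), mv (0.918) and Piezo (0.891), a mechanosensitive channel gene, for Lsp1beta. For Lsp1gamma they were DUBAI (0.918), the furin protease gene Fur1 (0.908) and Cog1 (0.904), a subunit of a Golgi tethering complex. From deviations within strains, r for these genes lay between 0.754 and 0.915, with the largest LSP1 deviations in MU17 and MU12.

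The labelled tissue was checked against markers of other organs. Fat body markers other than the 6 genes summed to 16931 to 28107 CPM, against 78.6 to 219 CPM for haemocytes, 18.2 to 91.7 for muscle, 3.50 to 113 for salivary gland, 1.81 to 9.89 for gonads and 0.253 to 1.76 for midgut, and of the salivary markers ng1 and ng2 were at 0. Most of the fat body sum came from apolpp, at 16998 CPM on average, while the other fat body markers averaged 74.8 (Hnf4) to 3401 CPM (Tsf1). Markers chosen for epidermis and cuticle summed to 2896 to 8696 CPM, with 3 of 5 called and nearly all of the sum in Cpr49Ac, and those for the nervous system to 471 to 620.1 CPM, with none of 3 called and nearly all of the sum in Syt1 (577 CPM on average, against 3.80 for elav, 0.45 for brp and 0.14 for nSyb). Summed muscle markers were highest in both MU17 libraries, at 91.7 and 73.9 CPM, carried by bt at 69.02 CPM on average there. Mhc was at 2.55 CPM in MU26 and 2.54 in MU17, and 2 of the 7 muscle markers were called. Beside these marker counts, 48.3% of all tested genes were called across strains. Salivary markers, which make up a small part of any library, were at 44.8 CPM in the first MU17 library against 113 CPM in the second, and at 12.9 CPM in the second MU12 library against 14.8 CPM in the first. Their part in the LSP1 differences was not tested.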

How the data were processed

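Per the labels and the study's methods, poly-A RNA was sequenced as paired reads, and the authors mapped reads with NextGenMap to a FlyBase release 6 transcriptome and discarded pairs that fitted different genes or transcripts. The deposited table holds whole-number counts per gene, summed over transcripts and not normalised, with a length per gene, which equals the longest annotated transcript for the 6 genes.

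The strain given in the labels defined the groups. Of 13931 genes, 8415 reached a mean of 15 counts per library. They were scaled by TMM and fitted with edgeR 4.0.16 in R 4.3.3, with 1 coefficient per strain (common biological coefficient of variation 0.225), and tested across strains, in the 10 pairs, and for each strain minus the mean of the other 4, with Benjamini-Hochberg adjustment over all genes at 0.05. Per-gene SEs are the log2 difference divided by the square root of F. Hexamerin ratios were tested by exact permutation, 1-sided by construction of F, with a smallest possible p of 5.77e-05. Ratios were not tested between single pairs of strains, and are given there as values. Names and positions come from the BDGP6.54 annotation of the Release 6 assembly.

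The text names the 6 genes, all members of lists of up to 4 genes, in longer lists up to 4 called members with the largest F and the most abundant uncalled one, the 3 genes most like each of the 6 (log2 CPM with a prior count of 2), and the neighbours of Fbp1 in level. One of the genes most like Lsp2 is not reported here. Genes named between libraries of MU17 and MU12 are outside this rule. The 6 genes and the lists were chosen with earlier results of these data known. Scripts were tested on simulated data. Alternatives were RLE, upper-quartile and total-count scaling, library sizes without the 6 genes, no filter, filterByExpr, DESeq2 1.42.0, limma-voom (limma 3.58.1), robust fitting, a replicate block, leaving out each library or MU17, and for shares other denominators. Libraries of the same strain were further apart than counting error allows (chi-square per degree of freedom 54.0 to 332).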

Additional observations from a re-analysis of the deposited data

How the results depend on the processing

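Among 1023 recomputed values, the log2 differences kept their sign throughout. The counts, p-values and shares among them have no direction, and nearly all the differences were ones that edgeR had called. Of the 20 pair calls, 8 passed under every alternative (5 of Lsp2, 2 of Fbp2 and 1 of Fbp1). The count of pair calls was 13 with total counts and 12 without the filter, and 15 to 24 when single libraries were left out. The 3 genes called across strains were 5 with DESeq2 (which called 59.6% of all tested genes, against 48.3%) and 5 without strain MU17 (41.7%), and 3 to 6 when single libraries were left out, with 6 without the first and 5 without the second MU17 library. Calls against the mean of the other strains were 7 to 14, with 7 without either MU10 library, and genes called across strains 3133 to 4008 against 4063, when single libraries were left out. Fbp2 had an adjusted p across strains of 0.0508 with total counts (edgeR), and Lsp1gamma of 0.0463. Scaling by total counts moved the median of all genes by up to -0.38 (MU26 minus MU17) and upper-quartile scaling by up to 0.15 (MU14 minus MU10). The share of calls higher in the first-named strain moved most with total counts in MU26 minus MU17 (9.47%, against 46.7% with TMM) and with upper-quartile scaling in MU14 minus MU10 (68.2%, against 50.2%). The median share of 32.0% was 12.2% with Fbp1 left out of both sides and 21.2% per length.

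Leaving out single libraries moved adjusted p-values of the ratios (exact permutation test) to 0.000476 to 0.019 for alpha over beta, 0.0284 to 0.0859 for alpha over gamma, 0.015 to 0.0852 for beta over gamma, 0.032 to 0.449, 0.0811 to 0.535 and 0.0994 to 0.58 for alpha, beta and gamma over Lsp2. Alpha over Lsp2 was 0.0298 without strain MU17. Where fewer libraries enter, fewer divisions are possible, and a strain left with 1 library is assumed to vary like the others.

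Whether same-numbered libraries of different strains were handled together is not given. Correlations of their deviations from strain means lay between -0.30 and 0.27, over 0.1 in 7 of 20 pairs. In a strain with 2 libraries the deviations mirror each other, so some of the 20 values repeat. With the replicate block 15 pair calls, 8 calls against the mean of the other strains and 3132 genes across strains were found, 3 of the 6 genes were called, and the adjusted p was 0.02 for alpha over beta, 0.10 for alpha over gamma and 0.075 for beta over gamma (exact permutation test).

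Depth does not limit the 6 genes, while 2 libraries per strain limit every estimate of spread. Rearing and extraction groups are not given in the sources used here, so they and the strains cannot be told apart.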
